A study of Caenorhabditis elegans with 2 samples.

Results

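The autosomal intergenic distal peaks of GFP-tagged MEP-1 were 886 of 4904 peaks in the authors' optimal list, and 22.1% (95% exact Clopper-Pearson interval 20.9 to 23.5%) of its 4003 autosomal peaks. A peak was a member if its summit lay on chromosome I, II, III, IV or V and inside no protein-coding gene. The summit also had to lie outside every promoter window, defined here as the 1000 bp before and the 200 bp after the 5' end of each protein-coding transcript. Of 936 autosomal summits that met these conditions, 50 within 200 bp of a transfer RNA or small nucleolar RNA gene were left out. The other autosomal summits were 2425 in promoter windows and 642 in gene bodies outside the windows. A summit could be a member on 19.3 Mb of sequence. Chromosomes I to V measure 15.1, 15.3, 13.8, 17.5 and 20.9 Mb in that order. The share of peaks alone therefore shows no excess over the share of sequence.

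The peaks come from chromatin immunoprecipitation with sequencing of whole L1 larvae of Caenorhabditis elegans, both sexes pooled. All animals were of strain OP102, with the unc-119(tm4063) III allele and the insertion wgIs102, which targets mep-1 with an eGFP tag. There were 2 biological replicates of this 1 group, so no condition was compared and no difference between classes of peaks below was tested. Whole larvae mix all somatic tissues and the few germline precursors, so no peak can be placed in a tissue. Read depth is unknown, and the intervals given cover counting error only, with neighbouring peaks not independent.

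MEP-1 is a zinc finger protein that binds LET-418, a worm Mi-2 chromatin remodeller, in the MEC complex, and it helps to keep germline genes silent in somatic cells. Most worm genes are compact, and regulatory DNA usually lies close to their 5' ends, while genes that direct development often have long flanking intervals with enhancers farther away. Intergenic peaks beyond the promoter windows can hold such elements, unannotated starts of transcripts or the ends of neighbouring genes, and peak calls alone do not separate these.

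The summit base with 50 bases to each side is printed for the 10 highest-signal members on II to V, since the words described further on can be read in them directly. They are the plus strand of the RefSeq sequence of WBcel235 (ce11), 5' to 3'. Capitals mark the word GACGCA, read as TGCGTC on the other strand, and the word CGTCTC, read as GAGACG there. They also mark the word GAGCGC, read as GCGCTC there, and the GA repeat GAGAGA, read as TCTCTC there. Each line names the flanking protein-coding genes, left then right.
Y17G7B.17 to Y17G7B.18, chrII:12102557-12102657: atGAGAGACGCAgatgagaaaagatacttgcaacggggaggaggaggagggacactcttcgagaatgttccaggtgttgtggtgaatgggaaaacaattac
sgn-1 to F07H5.13, chrII:8787566-8787666: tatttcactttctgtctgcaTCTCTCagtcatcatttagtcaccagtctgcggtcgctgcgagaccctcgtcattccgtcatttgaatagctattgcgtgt
gpb-1 to F44E5.4, chrII:11756978-11757078: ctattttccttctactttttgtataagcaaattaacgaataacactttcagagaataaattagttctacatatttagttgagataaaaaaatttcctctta
gfl-1 to mep-1, chrIV:11522695-11522795: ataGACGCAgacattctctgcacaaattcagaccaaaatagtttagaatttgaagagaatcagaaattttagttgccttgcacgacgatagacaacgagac
F38A6.4 to hif-1, chrV:20778405-20778505: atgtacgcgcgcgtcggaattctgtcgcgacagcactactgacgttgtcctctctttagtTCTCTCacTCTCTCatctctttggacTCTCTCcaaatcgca
C17C3.24 to ins-13, chrII:5543498-5543598: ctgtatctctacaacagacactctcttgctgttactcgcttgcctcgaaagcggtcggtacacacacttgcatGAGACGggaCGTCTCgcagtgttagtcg
ZK353.9 to sor-1, chrIII:8412117-8412217: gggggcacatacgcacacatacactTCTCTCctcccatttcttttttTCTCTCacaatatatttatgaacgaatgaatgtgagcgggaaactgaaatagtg
cutl-22 to cmd-1, chrV:1151405-1151505: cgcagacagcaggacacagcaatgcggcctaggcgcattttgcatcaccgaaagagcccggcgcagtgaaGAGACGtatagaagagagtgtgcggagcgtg
F54F12.1 to Y39E4B.6, chrIII:13061283-13061383: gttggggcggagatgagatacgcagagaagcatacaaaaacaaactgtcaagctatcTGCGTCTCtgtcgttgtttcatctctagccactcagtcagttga
F54F12.1 to Y39E4B.6, chrIII:13062647-13062747: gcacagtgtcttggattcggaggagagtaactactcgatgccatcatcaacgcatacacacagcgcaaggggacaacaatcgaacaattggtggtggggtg

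The next 3 members on II to V that hold the GA repeat are printed to show it both overlapping CGTCTC and as a longer run, with the same strand, build and capitals.
sup-26 to R10E4.3, chrIII:4282065-4282165: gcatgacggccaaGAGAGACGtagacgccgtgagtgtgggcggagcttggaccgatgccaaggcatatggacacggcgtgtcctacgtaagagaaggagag
Y17D7C.2 to asp-19, chrV:18723757-18723857: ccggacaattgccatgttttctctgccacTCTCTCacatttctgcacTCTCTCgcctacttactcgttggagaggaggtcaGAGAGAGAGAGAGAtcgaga
atfs-1 to T16A9.3, chrV:14200186-14200286: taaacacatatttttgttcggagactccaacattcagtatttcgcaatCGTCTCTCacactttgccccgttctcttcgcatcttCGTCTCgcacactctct

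Of these 13 windows, the one from gpb-1 to F44E5.4, with a GC content of 23.8%, and the one from F54F12.1 to Y39E4B.6 with the higher coordinates held none of the words. The window from Y17G7B.17 to Y17G7B.18 held GAGAGA and GACGCA on an overlapping run of 10 bases. The window from Y17D7C.2 to asp-19 had the longest unbroken GA run of the 13.

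The members carried lower signal than the promoter peaks of the same list. Signal, the authors' value for each peak, ran from 45.3 to 564 over the members with a median of 68.9 and quartiles of 55.1 and 104. The median was 97.0 over autosomal promoter peaks, 68.7 over gene body peaks and 71.8 over the 283 intergenic distal peaks of X chosen by the same rule. The median rank of the members in the list was 3046, against 1993 for promoter peaks. In the higher-signal 50% of the list lay 326 members (36.8%, 33.6 to 40.1%), against 59.8% of promoter peaks, 37.1% of gene body peaks and 36.7% of distal X peaks. In the highest 10% lay 47 members (5.30%, 3.92 to 6.99%), against 14.4% of promoter peaks. When the list was cut into 10 equal parts by signal, members made up 11.3% of the autosomal peaks in part 1, the highest (47 of 417), and 33.2% of those in part 10 (126 of 380).

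The optimal list equals the top 4904 of 30000 pooled peaks by signal, which is 16.3% of them. The same rule applied to the pooled list gave 6335 autosomal distal peaks, of which 14.0% were in the optimal list. For promoter windows the share was 28.1%, for gene bodies 7.22% and for distal X peaks 13.2%. The share of distal peaks that reached the optimal list was therefore close to that of the whole list.

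Each replicate ranked most of the members among its own highest peaks. Of the 886, 807 overlapped one of the 4904 highest peaks of replicate 1 and 693 one of those of replicate 2. Both held for 626 members (70.7%, 67.5 to 73.6%), against 82.0% of promoter peaks, 67.0% of gene body peaks and 72.8% of distal X peaks. Replicate 1 alone had 181 of the rest among its highest, replicate 2 alone had 67 and neither had 12. Over whole lists, signal in replicate 1 had a median of 14.5 and a maximum of 682. In replicate 2 these were 6.10 and 239. The part of this difference in the counts was not tested. A call anywhere in both replicate lists was found for 879 members. Since the optimal list was made from these replicates, the overlap is a description and no independent check.

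The recovery followed signal. All members in parts 1 to 3 of the list were among the highest peaks of both replicates, then 98.2%, 94.5%, 92.1%, 79.4%, 56.6%, 38.5% and 19.0% in parts 4 to 10. Promoter peaks gave 100% in part 1, 92.4% in part 6, 61.2% in part 8 and 13.2% in part 10. Spearman's rho between the replicate ranks was 0.607 over 879 members and 0.816 over 2402 promoter peaks, which span a wider range of signal and share the same libraries. Within single parts, rho over members was 0.642 in part 1 and negative in parts 2 to 10, from -0.149 to -0.781. The parts were cut by pooled signal from the same replicates, so these values are no separate check. When overlap had to reach 50% of both peaks, 55.2% of members were among the highest of both replicates.

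**Figure D1:**
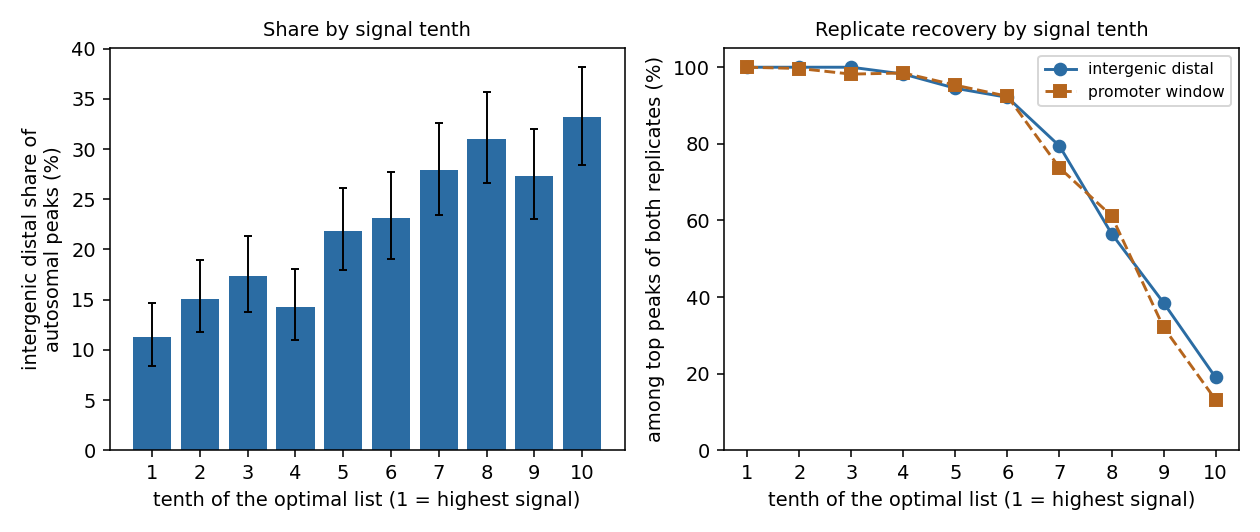
Left, the share of autosomal peaks that were intergenic distal, in percent, over 10 equal parts of the optimal list from highest (1) to lowest (10) signal, with 95% exact binomial bars. Right, the share of intergenic distal and promoter window peaks that overlapped the highest peaks of both replicates. The share on the left was 11.3% in part 1 and 33.2% in part 10, and on the right both classes fell together after part 6.

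**Figure D2:**
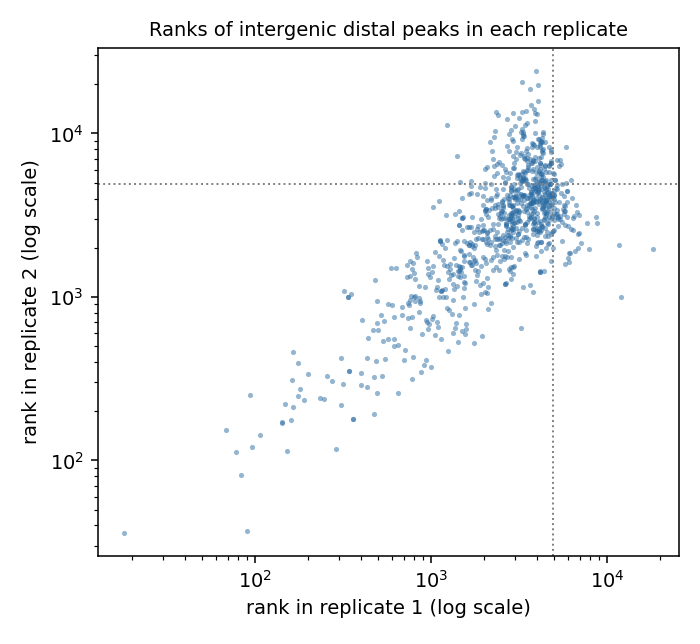
Rank of each intergenic distal peak by signal in replicate 1 and replicate 2, on log scales, for the 879 members with a call in both. Dotted lines mark rank 4904, and the 626 members below both lines are in the lower left.

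The strongest member lay on chromosome I at 16869 to 17148, between the 3' ends of nlp-40 and rcor-1, with a signal of 564 and rank 20 in the list. nlp-40 (WBGene00022276) encodes a neuropeptide that times the defecation rhythm, and rcor-1 encodes a worm CoREST corepressor. It ranked 18 in replicate 1 and 36 in replicate 2, and its summit was 177 bp from the end of nlp-40 and 470 bp from that of rcor-1. Convergent intervals such as this one held few members, and the next strongest in one were between aagr-1 and D2096.7 (signal 257) and between gdh-1 and tgt-1 (signal 239).

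Of the 25 strongest members, with signals down to 268, each replicate had all of them among its highest, and the worst rank in either was 460. In 16 of them the nearest gene boundary was a 3' end, which held for 40.5% of all members and 51.6% of eligible bases. A promoter peak at 1 flanking gene or both was present for 18, against 45.4% of all members.

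On V, a member at 20778249 to 20778554 was 1952 bp upstream of hif-1 (WBGene00001851), the hypoxia-inducible factor, with a signal of 365 and ranks of 107 and 143. Also on V, a member at 10466723 to 10466924 was 1704 bp upstream of egl-9, whose product hydroxylates HIF-1 for destruction, with a signal of 279 and ranks of 200 and 337. A member at 14200120 to 14200336 on V was 2536 bp past the 3' end of atfs-1, a transcription factor of the mitochondrial unfolded protein response, with a signal of 298 and ranks of 179 and 273.

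Both members of an inverted pair beside hsp70 family genes were near 3' ends on chromosome II. The first, at 11756810 to 11757229, had its summit 79 bp past the end of F44E5.4, with a signal of 393 and ranks of 68 and 154. The second, at 11761684 to 11762190, had its summit 66 bp past the end of F44E5.5, with a signal of 283 and ranks of 165 and 460. Both peaks reached across the 3' end into the gene. Of 401 words of 20 bases in the first peak, 89 (22.2%) also occur in the reverse complement of the second, and how far reads were shared between them was not tested. Within 50 bp of both summits, all words of 32 bases were unique in the genome.

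The member at 11522680 to 11522872 on IV lay 531 bp past the 3' end of gfl-1, a YEATS domain gene, and 1897 bp upstream of mep-1 itself. Its signal was 377 and its ranks were 96 and 120. The strain carries the tagged mep-1 insertion, and the part of extra copies of this sequence in the signal was not tested.

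Other members of the 25 lay at a range of distances from their flanking genes. A member at 8412018 to 8412250 on III was 6001 bp upstream of sor-1, a repressor of Hox genes, but only 150 bp past the end of ZK353.9 (signal 336, ranks 142 and 172). A member at 4701291 to 4701495 on I was 2795 bp upstream of chd-7, a chromodomain helicase (signal 289, ranks 233 and 240). A member at 1151300 to 1151624 on V was 4816 bp upstream of the calmodulin gene cmd-1 (signal 335, ranks 152 and 114). Upstream of sup-26, an RNA-binding protein gene on III, a member at 4281984 to 4282300 was 1891 bp away (signal 308, ranks 164 and 212). On III at 8658430 to 8658730, a member was 1324 bp past the end of dpy-19, a gene of neuroblast migration (signal 287, ranks 176 and 393).

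Members were spread over flanking arrangements, with few between convergent genes. Between genes that point the same way lay 517 members (58.4%), between divergent genes 321 (36.2%) and between convergent genes 47 (5.30%, 3.92 to 6.99%), with 1 member at a chromosome end. The bases in which a summit could count as a member, here called eligible, were 53.5% tandem, 28.8% divergent and 17.6% convergent. Over the 19.3 Mb of eligible sequence there were 45.8 members per Mb (exact Poisson interval 42.9 to 48.9). The density was 57.6 per Mb (51.5 to 64.3) in divergent, 49.98 per Mb (45.8 to 54.5) in tandem and 13.8 per Mb (10.2 to 18.4) in convergent intervals. Convergent intervals had the lowest density on each of the 5 autosomes, from 4.82 per Mb on II to 29.0 per Mb on III. With windows reaching 2000 bp upstream, 8.19% of the members left were in convergent intervals. Such windows take out only sequence upstream of 5' ends, and the share of eligible bases left in convergent intervals is not given here.

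Density was also lower far from 5' ends than close to them. It was 62.6 per Mb (55.1 to 71.0) at up to 1500 bp, where 246 members lay, and 28.5 per Mb (23.4 to 34.4) beyond 5000 bp, where 110 lay. Between these it was 49.7 per Mb beyond 1500 and up to 2000 bp, 51.6 per Mb from there to 3000 bp and 38.1 per Mb from there to 5000 bp. The nearest 5' end was 473 to 16633 bp away with a median of 2228 bp, and 692 members (78.1%) were upstream of it.

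For 359 members (40.5%) the nearest gene boundary was a 3' end, while this held for 51.6% of eligible bases. The density was 36.0 per Mb where a 3' end was nearest and 56.3 per Mb where a 5' end was. Past a 3' end it showed no steady course, with 41.4 per Mb in the first 200 bp, 30.8 per Mb beyond that and up to 500 bp, 41.6 per Mb between 1000 and 2000 bp and 29.6 per Mb beyond 2000 bp. The median distance to the nearest protein-coding gene was 1664.5 bp, with 56 members within 200 bp of such a gene and 76 over 5000 bp away.

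**Figure D3:**
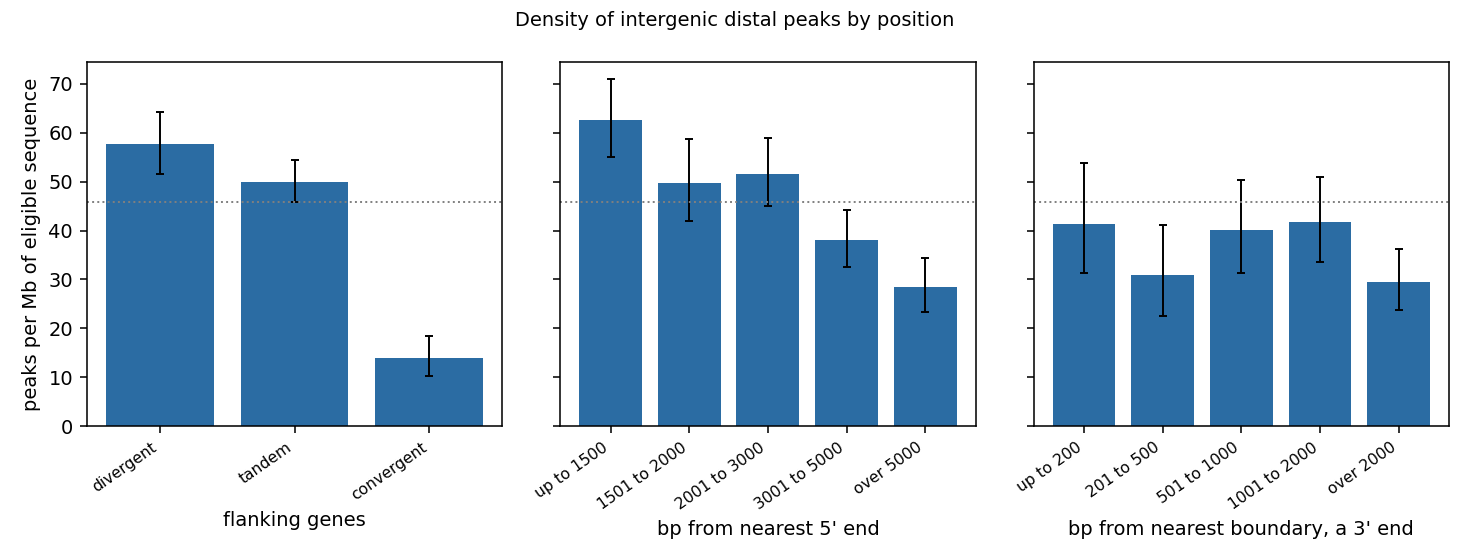
Intergenic distal peaks per Mb of eligible sequence, with 95% exact Poisson bars, by arrangement of the flanking genes (left), distance in bp from the nearest 5' end (middle) and distance in bp where the nearest boundary is a 3' end (right). The dotted line is the density over all eligible sequence, 45.8 per Mb, and the convergent bar is lowest at 13.8 per Mb.

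Signals just inside and just outside the promoter windows overlapped. The 41 autosomal peaks whose summit lay in the outermost 100 bp of a window had signals of 45.8 to 513 with a median of 74.4, and 25 of them were among the highest of both replicates. The 45 members in the first 100 bp beyond a window had signals of 45.6 to 196 with a median of 66.5, and 29 of them were.

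By chromosome, members were densest on III and I. There were 190 members on III (68.2 per Mb of eligible sequence), 182 on I (64.8 per Mb), 161 on II (45.1 per Mb), 192 on IV (38.4 per Mb) and 161 on V (31.1 per Mb). As a share of the peaks of each chromosome they ranged from 19.9% on I to 25.6% on IV. On V, 28.0% of members were in the higher-signal 50% of the list, against 37.9 to 39.1% on the other 4. The middle 50% of the chromosomes, where essential genes cluster in this species, held 538 members (60.7%, 57.4 to 64.0%) on 46.4% of eligible bases. Density was 59.9 per Mb there and 33.6 per Mb in the arms.

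Many members shared their interval with another. Of 7298 intervals with an eligible base, 625 (8.56%) held a member, and these had a median length of 5430 bp against 2275 bp for all. In 456 of them there was 1 member, in 111 there were 2, in 40 there were 3 and in 18 there were 4 to 9. The 169 intervals with several held 430 members (48.5%). Such neighbours were seldom close, as 35 members (3.95%) had another optimal summit within 500 bp, and the median to the next summit was 2476 bp. Of the members, 26 overlapped another optimal peak.

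The fullest interval, 18574 bp on II from 6816434 to 6835007, had 9 members between snt-1, a synaptotagmin gene, and egl-27, which encodes a relative of the MTA subunits of NuRD complexes. Their signals from left to right were 83.7, 116, 71.0, 67.1, 50.3, 57.6, 147, 98.0 and 50.4. Of the 9, 5 were among the highest peaks of both replicates, and all lay upstream of egl-27, 4796 to 13699 bp from it. The promoter of egl-27 also had a peak.

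The interval of 15313 bp on III between the divergent genes F54F12.1 and Y39E4B.6 had 7 members with signals of 334, 316, 90.4, 53.4, 224, 46.0 and 45.6 from left to right. The first, at 13061143 to 13061480, ranked 143 and 170 in the replicates, and the next, at 13062651 to 13062840, ranked 160 and 177. Both stood well above the other members there except the one of 224, which ranked 339 and 994.

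The 6 members in 35563 bp on IV between irld-18 and dmd-6, a DM domain gene, had signals of 48.5 to 144, and all 6 were among the highest of both replicates. The pair farthest left, at 14594293 to 14594384 and 14594376 to 14594725, overlapped each other and matched the same replicate peaks, ranked 1131 and 1088. These were also the members farthest from any protein-coding gene, at 13307 and 13512 bp. The next 3 by distance were between srab-24 and ilcr-1 (signal 104), between Y75B8A.6 and Y75B8A.7 (51.3) and between C07F11.2 and tol-1 (75.4).

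On V, the interval between W06H8.6 and K08B12.3 had 6 members with signals of 52.6 to 85.5. The interval between lpin-1, the lipin gene of fat metabolism, and letm-1, a mitochondrial inner membrane protein gene, had 5 members with signals of 136, 67.5, 163, 166 and 48.0 from left to right. Of these 5, 4 were among the highest of both replicates.

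**Figure D4:**
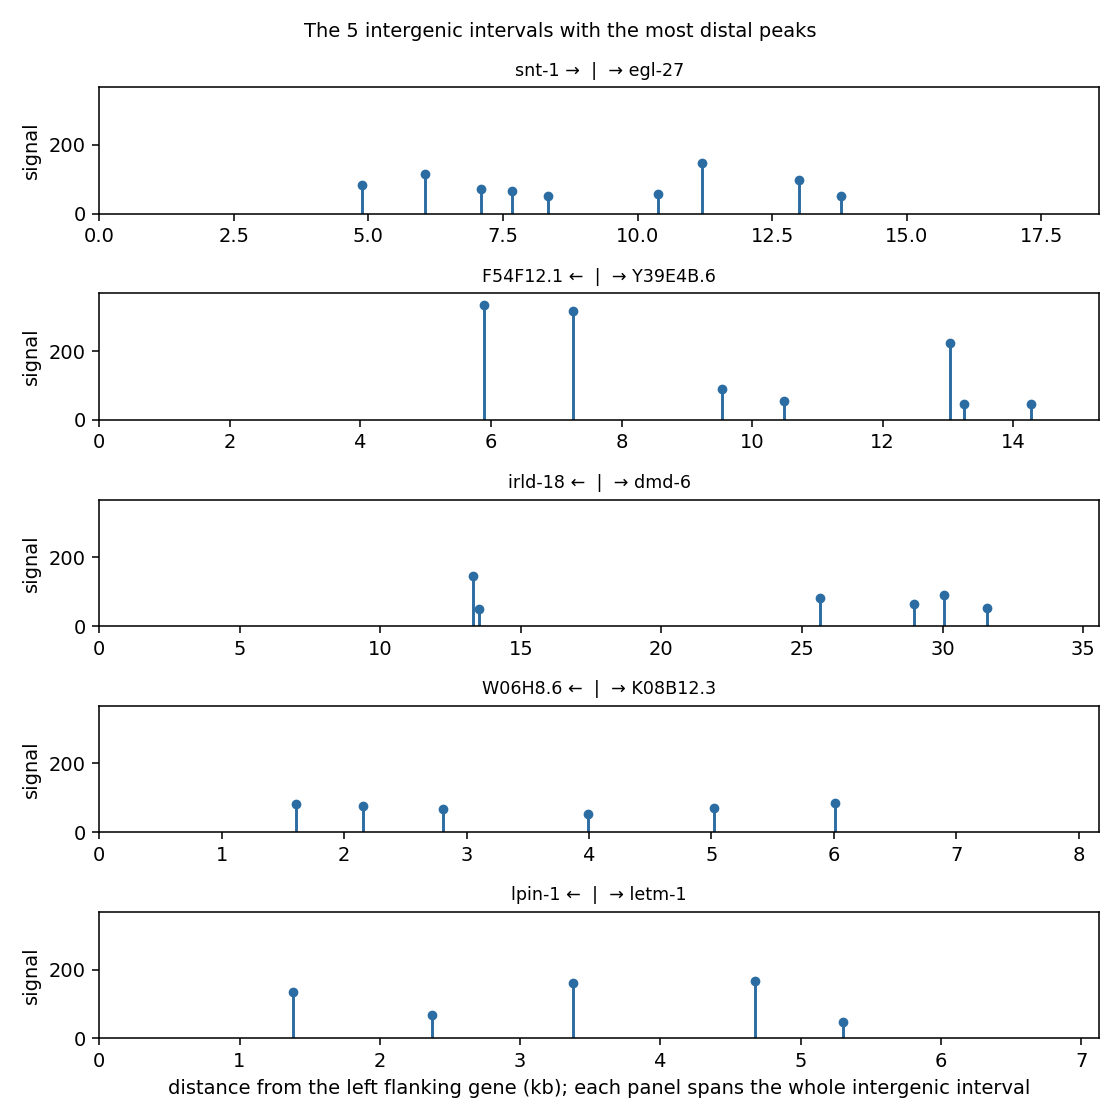
Signal of each intergenic distal peak, drawn at its distance in kb from the left flanking gene, in the 5 intervals with the most members. Arrows give the direction of transcription of the flanking genes, and the highest peak, 334, is in the second panel.

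Among 11048 autosomal genes that border eligible sequence, 1218 (11.0%) flanked a member. A gene with more eligible sequence beside it has more room for a member, and the median of that length was 1788.5 bp over all of them and is given for the main lists below. The lists were set by gene name, and a member counts for both of its flanking genes, whichever is nearer.

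Signalling and basic helix-loop-helix genes had the highest shares. Of 41 genes of the Wnt, Notch, EGF-Ras and TGF-beta pathways, 14 had a member (34.1%, 20.1 to 50.6%; median 2712 bp). They include let-60, the Ras gene, with a member 1400 bp upstream (signal 151, ranks 916 and 1156) that was also 1305 bp upstream of ZK792.12. The strongest, with ranks of 942 and 702 and a signal of 167, was 6052 bp upstream of sup-17, an ADAM protease gene of Notch signalling, but 1497 bp upstream of mfb-1. Next after these was mig-14, needed for Wnt secretion, with a signal of 73.0. Of 22 basic helix-loop-helix genes, 7 had a member (31.8%, 13.9 to 54.9%; median 3176 bp). Among them hif-1 is followed by mml-1, a Mondo family factor, with a member 1888 bp upstream (signal 213, ranks 543 and 415) and the 3' end of T20B12.7 nearer at 1232 bp.

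Other transcription factor lists were nearer the share over all genes. Homeobox genes gave 8 of 57 (14.0%, 6.26 to 25.8%; median 4016 bp), with ceh-24 and lin-11 the strongest. The member for ceh-24 (signal 165) was 4580 bp upstream of it but 1414 bp upstream of swan-1. The member for lin-11 (signal 146) was 12951 bp upstream of it but 1951 bp upstream of csnk-1. GATA, T-box, Sox, ETS and forkhead factors gave 6 of 38 (15.8%, 6.02 to 31.3%; median 3964 bp), with egl-27 (147) and egl-18 (71.2) among them. Nuclear hormone receptors gave 21 of 182 (11.5%, 7.29 to 17.1%), with nhr-88 (237), nhr-20 (225) and nhr-34 (162) the strongest. In each of these lists the interval includes 11.0%.

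The germline and timing lists were small. Of 20 genes of P granules and germline RNA regulation, 4 had a member (20.0%, 5.73 to 43.7%), among them pie-1, a repressor of transcription in germline blastomeres, with a member 2552 bp upstream (signal 109). Of 6 heterochronic genes, 1 had a member (16.7%, 0.421 to 64.1%). It was lin-41, a TRIM gene and a target of let-7, 1486 bp upstream on I (signal 211, ranks 435 and 557), with the 3' end of M04C9.2 nearer at 742 bp.

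Chemoreceptor and F-box genes had the lowest shares. Chemoreceptor genes gave 16 of 858 (1.86%, 1.07 to 3.01%; median 1714 bp) and F-box genes 3 of 201 (1.49%, 0.309 to 4.30%; median 1626 bp). Neuropeptide and insulin-like genes gave 4 of 97 (4.12%, 1.13 to 10.2%; median 2889 bp), yet these include nlp-40 and ins-13, with signals of 564 and 349, both on the side of the gene's 3' end. The member of 349 was 964 bp from ins-13 but 50 bp from the spliced leader RNA gene sls-2.2, described below. C-type lectins gave 7 of 162 (4.32%; median 1072.5 bp) and cuticle collagens and related genes 8 of 90 (8.89%; median 982.5 bp). Ion channels and neurotransmitter receptors gave 9.90% (median 2761 bp). Ribosomal proteins gave 3 of 34 (8.82%; median 328 bp) and histones 2 of 49 (4.08%; median 709 bp), with less room than the 1788.5 bp over all genes.

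Genes with a member more often had a promoter peak as well. Of the 1218, 291 (23.9%, 21.5 to 26.4%) had one, against 12.1% of the 9830 without a member. The order held among genes bordering up to 1000 eligible bp (34.7 against 15.1%), 1000 to 5000 bp (25.7 against 10.4%) and over 5000 bp (21.0 against 9.42%). It also held in the middle of chromosomes (26.3 against 14.7%) and in the arms (20.3 against 9.57%). In all, 402 members (45.4%) had a promoter peak at 1 flanking gene or more, and 53 at both.

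Non-coding annotation overlapped 88 summits (9.93%), below the 15.0% of eligible bases that carry any. The make-up differed by class. Genes of the ncRNA class, a broad annotation class of transcripts without a more specific type, held 73 summits (8.24%, 6.51 to 10.2%) on 1.36% of eligible bases, or 278 members per Mb. This was so on each autosome, from 3.68% of members on 1.05% of bases on III to 12.5% on 1.54% on IV. Long intergenic RNA genes held 12 summits (1.35%, on 0.787% of bases), and pseudogenes held 3 (0.339%, on 12.2% of bases). Examples in ncRNA genes were the member upstream of egl-9, in F22E12.10 and F22E12.9, one between cpg-4 and fos-1 in C10F3.15 (signal 246) and the one upstream of let-60 in ZK792.10. The members near cmd-1 and chd-7 lay in linc-128 and linc-91.

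Of small RNA genes, no piRNA gene (0.663% of eligible bases) and no microRNA gene (0.0332%) held a summit. Within 200 bp of a microRNA gene lay 6 members, and within 200 bp of a piRNA gene 20. The share of eligible bases in these zones was not computed. A member at 11027675 to 11027981 on IV was 127 bp from cel-mir-53 (signal 237, ranks 400 and 341), and one at 14033838 to 14034089 on IV was 22 bp from cel-mir-52 (204, ranks 538 and 717). One 54 bp from cel-mir-51 had a signal of 54.3 and ranks of 3419 and 11213. The other microRNAs were cel-mir-2211 at 81 bp (signal 68.2), cel-mir-238 at 159 bp (64.7) and cel-mir-42 at 181 bp (46.8). The SL2 RNA gene sls-2.2, which supplies a spliced leader for downstream genes of operons, had summits 50 and 42 bp to its sides on II, with signals of 349 and 238. These 2 peaks overlap, with summits 201 bp apart, and whether they are 1 divided peak was not tested. The one of 349 is the member counted above for ins-13.

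Masked repeats were scarcer near the summits than in eligible sequence. Bases that RefSeq masks as repeats made up a median of 18.8% of the windows of 50 bp to each side of the summits. The median was 37.6% over all windows of the same length cut from eligible sequence. In 869 members (98.1%) every 32-base word within 50 bp of the summit was unique in the genome. This share was not computed for eligible windows. Reads from repeated sequence may not map uniquely, and the part of this in the low counts at repeats and pseudogenes was not tested.

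The windows of 50 bp to each side of the summits were richer in GC than intergenic sequence. Their median GC content was 43.6% (16.8 to 63.4%), against 33.7% over 184534 eligible windows, 44.6% at promoter peaks and 43.6% at distal X peaks. Words were searched on both strands in the same windows, and a match describes the letters only. The words were chosen with earlier results of these data known. A higher share at summits than in eligible windows is therefore a description and no independent check.

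GAGAGA, the GA repeat, was in 390 members (44.0%, 40.7 to 47.4%) and in 5.58% of eligible windows. It was in 25.4% of autosomal promoter peaks, 34.4% of gene body peaks and 18.4% of distal X peaks. With GC content held between 40 and 50%, it was in 50.3% of 441 members and 8.72% of 35826 windows outside peaks. On each autosome the share was high, from 33.5% against 4.84% of windows on V to 48.9% against 6.57% on I. Unbroken GA runs of at least 12 bp were in 44 members (4.97%, against 0.254% of windows) and of at least 20 bp in 13. Members with the word had a median signal of 75.3 and those without it 65.6. The share depends on the window, with 24.7% at 25 bp and 62.2% at 100 bp to each side.

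CGTCTC was in 201 members (22.7%, 20.0 to 25.6%), against 2.58% of eligible windows, 18.6% of promoter peaks and 11.0% of distal X peaks. Members with it had a median signal of 80.5, against 67.1 without it, and 81.6% of them were among the highest of both replicates, against 67.4%. GACGCA was in 153 members (17.3%, 14.8 to 19.9%), against 2.04% of windows, 18.0% of promoter peaks and 8.48% of distal X peaks. It was in 10.2% of members at 25 bp to each side. Among windows of 40 to 50% GC, CGTCTC was in 25.4% of members against 4.86%, and GACGCA in 20.0% against 3.42%. CGTCTC and GACGCA can share letters, as in TGCGTCTC. Of the 153 members with GACGCA, 119 also held CGTCTC, so the shares of these words are not separate. CGTCTC can also overlap GAGAGA through its reverse complement GAGACG, and GACGCA can follow GAGA directly, as in the window from Y17G7B.17 to Y17G7B.18. GAGAGA and CGTCTC were together in 129 members (14.6%) and 0.589% of windows.

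GAGCGC was in 43 members (4.85%) and 1.22% of windows, but in 14.2% of promoter peaks. At least 1 of the other 3 words was in 484 members (54.6%) and 8.88% of windows, and 388 (43.8%) had none of the 4 words, like the member past the end of F44E5.4.

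Sites named after known factors and elements were searched too, and shares with GC held between 40 and 50% are given as members against windows outside peaks. The E-box of basic helix-loop-helix factors, CACGTG, was in 49 members (5.53%) and 1.42% of windows, 5.44 against 2.76% with GC held. It was in 4.74% of promoter peaks, 7.01% of gene body peaks and 5.30% of distal X peaks. The GATA site searched for, TTATCA, was in 5.87% of members and 8.98% of windows, 4.08 against 5.34% with GC held. The CHR element of cell cycle genes, TTTGAA, was in 13.1% of members and 31.7% of windows, 10.9 against 15.7% with GC held. The TATA word TATAAA was in 4.74% of members and 12.1% of windows, 4.08 against 4.24% with GC held. The worm telomere repeat TTAGGC was in 1.13% of members and 2.88% of windows, 1.59 against 4.34% with GC held. An E2F site, TTCCCGC, was in 1.35% of members and 1.55% of windows, 1.13 against 2.10% with GC held. An AP-1 site, TGACTCA, was in 11 members (1.24%, 0.621 to 2.21%) and 0.935% of windows, 0.907 against 0.787% with GC held. The core of the B box inside transfer RNA genes, GTTCGANNC, where N is any base, was in 6 members (0.677%, 0.249 to 1.47%) and 0.759% of windows, 0.680 against 1.37% with GC held. It was in 11 of the 50 summits left out for their distance to transfer and small nucleolar RNA genes (22.0%). Its share in members was 0.113% at 25 bp and 1.69% at 100 bp to each side.

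**Figure D5:**
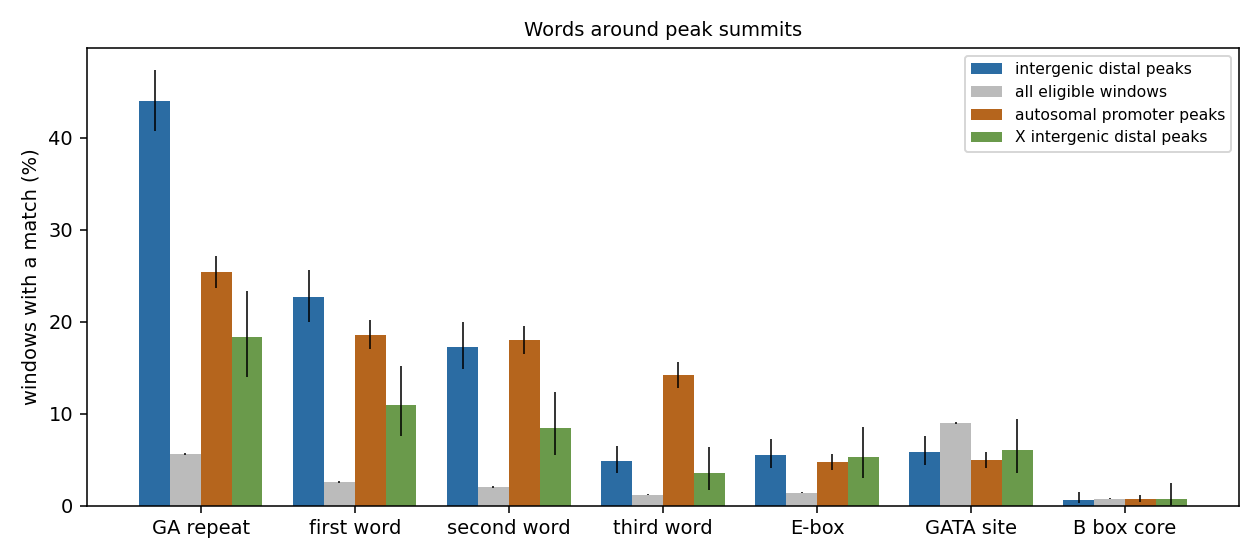
Share of windows of 50 bp to each side of a summit, in percent, with each word on either strand, for intergenic distal peaks, all eligible windows, autosomal promoter peaks and X intergenic distal peaks, with 95% exact binomial bars. The GA repeat is GAGAGA, the word drawn first after it is CGTCTC, the next word drawn is GACGCA and the last of these words is GAGCGC. The E-box is CACGTG, the GATA site drawn is TTATCA and the B box core is GTTCGANNC, and the tallest bar is the GA repeat in distal peaks at 44.0%.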

How the data were processed

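Each replicate has a peak list, the pooled replicates another, and an optimal list follows a step on the irreproducible discovery rate (IDR), as the deposited file lists state. Column 7 is the signal value of each peak as deposited by the authors, and it served to rank peaks inside 1 list. Column 9 is the authors' −log10 q value as deposited. The optimal, pooled, replicate 1 and replicate 2 lists hold 4904, 30000, 30000 and 29149 peaks on ce11. The authors' calling used a control, per the deposited file lists, while here no control library was analysed. Aligner, caller, versions and IDR threshold: not given in the sources used here. Read depth is unknown. Library fragments were 150 to 350 bp, per the labels. The ce10 lists were not used.

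Summits were classed with 19973 protein-coding genes of Ensembl release 115 (WBcel235), with sequence from RefSeq. Coordinates count from 1, and distances run from the summit. Overlap means at least 1 bp, and a replicate rank is that of the best overlapping peak. Shares have exact Clopper-Pearson and densities exact Poisson intervals at 95%. The classification was tested on simulated data with planted classes. Python 3.11.15, numpy 2.4.6, pandas 2.3.3, scipy 1.17.1 and matplotlib 3.10.9 were used.

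Members, words and 15 gene lists were chosen with earlier results of these data known. Lists match gene names, and the ion channel pattern was corrected after values were seen because it had matched other genes. Genes are named by rule from the 25 strongest members, the 5 fullest intervals and the 5 members farthest from protein-coding genes. They also come from the 3 strongest by orientation, list and word, and from the members beside small RNA genes, which were added later. The 3 sequences with GA repeats were also chosen later. Alternatives were a stricter threshold, other windows, whole peaks, non-coding genes left out and each replicate alone.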

Additional observations from a re-analysis of the deposited data

How the results depend on the processing

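Of 80 alternative values, 59 moved by less than their counting error or, for counts of peaks, by less than 1.5 times. The higher-signal 50% of the list gave 326 members, 16.0% of autosomal peaks, with 98.2% among the highest of both replicates, GACGCA in 21.5%, GAGAGA in 51.2% and the B box core in 1.53%. A window of 2000 bp upstream gave 537 members, 13.4% of autosomal peaks, with 8.19% in convergent intervals and a 3' end nearer in 49.5%, and a window of 500 bp gave 28.4% of autosomal peaks. The share of autosomal peaks was 19.6% with the whole peak outside genes and windows and 17.4% without summits near any non-coding gene. Overlap of 50% of both peaks gave 55.2% among the highest of both replicates. At 25 bp to each side of the summit GACGCA was in 10.2%, GAGAGA in 24.7% and the B box core in 0.113%, and at 100 bp in 24.7%, 62.2% and 1.69%. A wider window around the summit holds more letters by construction. Other promoter windows, the whole-peak rule and the filter on non-coding genes change the set of members by construction. A stricter overlap can only lower the share among the highest peaks. Shares of eligible bases are not given for the other promoter windows, and for the remaining changes the cause was not tested. Members numbered 865 of 3986 autosomal peaks without replicate 1 and 896 of 3998 without replicate 2. These lists were nearly as long as the optimal list, with its 4003 autosomal peaks. The similar numbers of members therefore follow in part from list length. GAGAGA was in 44.4% of members without replicate 1 and in 40.1% without replicate 2. The alternatives for GAGAGA and for ncRNA genes were chosen after seeing the data. Replicate recovery was not computed for lists of a single replicate, nor the share in the higher-signal 50% within that part of the list, nor the ncRNA share with non-coding genes left out. No paired analysis was possible because the study has only 1 group. Read depth is unknown, so how far it limits the weaker members cannot be said.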
